A study of Arabidopsis thaliana with 36 samples.

Results

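Shoots of Arabidopsis thaliana Col-0, the common laboratory accession, were compared at nearly the same hour of the morning on successive days. The later samples are the 2 shoot arrays taken 24 h after the start of an experiment, set against the 4 shoot arrays taken 0.25 h and 0.5 h after it. They are 6 of the 36 arrays of the series, and were chosen by tissue and time from the array titles. All groups are untreated control plants of a stress series, grown in a growth room on Murashige and Skoog medium at 24 °C and 50% humidity with a 16 h light period. The experiment began on day 16, 3 h into the light, so the 24 h samples were taken 0.25 or 0.5 h earlier in the light period than the early ones. Control plants received the handling of the treated ones: their boxes were carried out of the climate chamber, opened, their rafts lifted, and carried back. The 24 h and early groups therefore differ in age by a day, in the time since handling and slightly in the hour of the light period. These cannot be told apart. The control measures of RNA quality given below differed between the groups as well. Each time has 2 arrays, and nothing in the labels tells whether they are separate plants. The p-values therefore reflect only how far these samples spread, which could be a technical spread, and so few arrays limit the precision.

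Transcripts of a leaf follow the hour of the day through the circadian clock, the light and the sugar made by photosynthesis, and samples of the same hour share that part of the variation. Touch, movement and a change of air are known to raise transcripts for calcium-binding proteins, cell wall enzymes and stress transcription factors within minutes in Arabidopsis. A separate group of genes, sometimes called dark-inducible, is known to be held down by sugar and released when sugar runs short.

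Values are the signals that the authors deposited, MAS5 intensities of Affymetrix ATH1 arrays, on which each probe set reads a transcript. The filter on low signals kept probe sets that reached 40 on 2 or more of the 18 shoot arrays. The shoot label was checked with marker genes. The summed signal of 8 photosynthesis genes was 34830 and 33100 on the 24 h arrays, against 30710 to 32730 on the early arrays, and 297.6 to 566.5 on root arrays. The summed signal of 10 root marker genes was 607.9 and 960.0 at 24 h, against 524.6 to 679.4 early, while root arrays had 12280 to 15430. None of the 3 root markers kept by the filter on low signals passed the test. The 7 that it removed stayed at a signal of at most 22.7 on all 6 shoot arrays. Of these, AT4G30170 was at 5.54 to 6.86 at 24 h, against 2.66 to 5.27 early. AT2G19970 was at 0.558 to 0.568 at 24 h, against 0.7 to 1.24 early, and the others overlapped. EXPA7 and EXPA18 had root means of only 48.3 and 59.6, so they can hardly show root tissue. The correlation over probe sets, which are no independent replicates, was 0.925 to 0.955 between a 24 h and an early array, 0.967 to 0.975 between a 0.25 h and a 0.5 h array, and 0.98 to 0.99 between the arrays of a time.

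The control probe sets of the array, which serve as measures of RNA quality, also moved with the groups. The ratio of the 3' to the 5' actin signal, which grows when RNA is degraded or copied short, was 3.374 and 3.375 at 24 h, against 1.998 and 2.28 at 0.25 h and 2.427 and 2.434 at 0.5 h. No other shoot array reached the 24 h values. The same ratio for GAPDH was 1.182 and 1.105 at 24 h, against 0.965 to 1.062 on the early arrays. The 25S ribosomal RNA control had a signal of 1095.5 and 814.5 at 24 h, against 2060.3 and 2281.5 at 0.25 h and 1433.2 and 1396.4 at 0.5 h. All 3 measures separated the 24 h arrays from the 4 early ones, and the counts with the actin ratio or the 25S signal as a covariate are given below for all probe sets and for most gene lists.

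**Figure D1:**
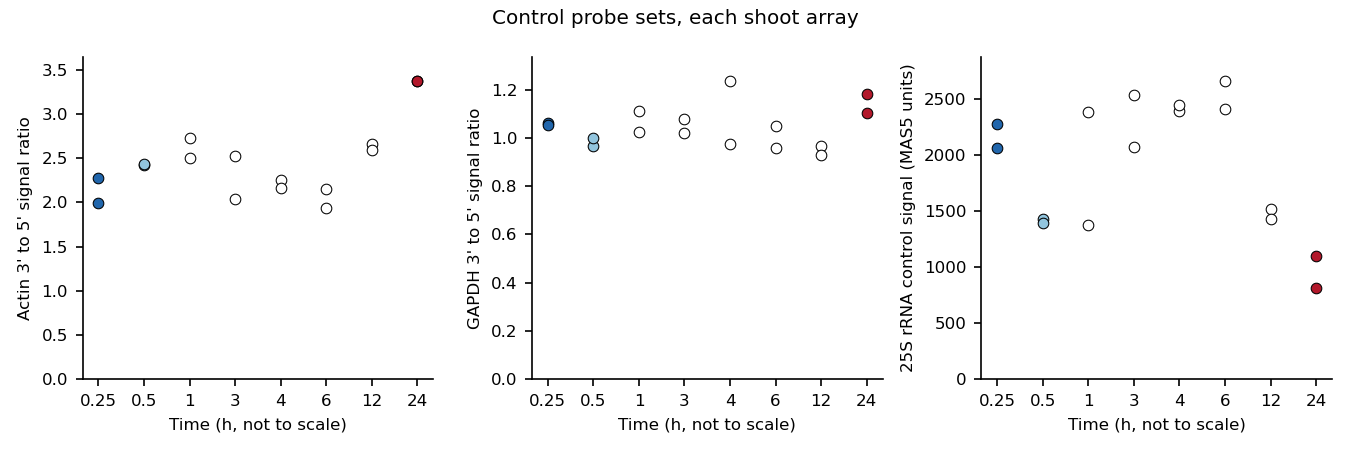
Control probe sets on each shoot array from 0.25 to 24 h (horizontal axis, time in h, not to scale; vertical axes, the 3' to 5' signal ratio of actin and of GAPDH and the 25S ribosomal RNA signal in MAS5 units). Each point is 1 array, red at 24 h, dark blue at 0.25 h, light blue at 0.5 h and white at other times. Both 24 h arrays lie above the early arrays for actin and GAPDH and below them for 25S.

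Over the whole array, 3100 of 12883 probe sets kept by the filter (24.1%) differed between 24 h and the early times at an adjusted p under 0.05 (limma, Benjamini-Hochberg). Of these, 1558 (12.1%) were higher and 1542 (12.0%) lower at 24 h. The falls reached further than the rises: 419 probe sets (3.25%) were lower by at least 2-fold and 74 (0.574%) higher, and 86 (0.668%) were lower by at least 4-fold and 4 (0.0310%) higher. Differences are given on the scale of log2(signal + 10), which understates those of dim probe sets, and 180 of the 419 had a mean 24 h signal under 40. Without the added 10 the counts past 2-fold were 507 lower and 103 higher. Most of the kept probe sets stayed close to their level of the previous morning. The 95% interval lay within 2-fold either way for 11555 (89.7%), and the median difference was 0.024. Of all kept probe sets, 505 were below 40 on all 6 arrays, where the added 10 understates differences. Without it 11002 were bounded within 2-fold. With the 25S signal as a covariate 9551 were, and with the actin ratio 7618. Both 24 h arrays lay above all 4 early arrays for 3051 probe sets (23.7%) and below them for 2611 (20.3%), which is 43.9% in all.

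These counts depended on the control measures and on single arrays. With each array's 25S signal as a covariate 1007 probe sets differed (358 higher, 649 lower), and with the actin ratio as a covariate, an alternative chosen after seeing the data, 14 did, all lower, with 1389 at an unadjusted p under 0.05. The covariate widened the errors, as the median standard error (SE) was 0.286 with the actin ratio and 0.119 without it. The estimates moved too, in both directions. Of the gene lists described below, the median for sugar starvation was -0.86 with the actin ratio and -1.99 without it. For glucosinolate genes it was -0.3 and 0.45, and for touch and rapid stress -2.17 and -1.85. Without the first 24 h array 1316 differed and without the second 1674. Centring each array on its own median gave 2106 higher and 1250 lower, so 62.8% of the calls were higher, against 50.3% of the calls with the deposited scaling.

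Gene names were available for 6836 of the kept probe sets, of which 799 were higher and 809 lower at 24 h. The 12 largest falls and the 12 largest rises among these, with no overlap between the 24 h and early arrays, are described with the gene lists they belong to. All 24 passed the test against 0.25 h alone and against 0.5 h alone. These tests use the arrays by which the 24 were chosen, so they are no separate support. With the 25S covariate 23 of the 24 kept their call, and with the actin covariate 1 did, AT3G10020. Where the tables give a gene only by its locus, the role stated with it is background knowledge of that locus. For the gene lists, the number of members called is to be read against the shares of all probe sets given above, and the lists were drawn up with results of these data known. Members under 40 on both 24 h arrays passed the filter through other arrays, so counts of lower members lean in part on the filter.

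**Figure D2:**
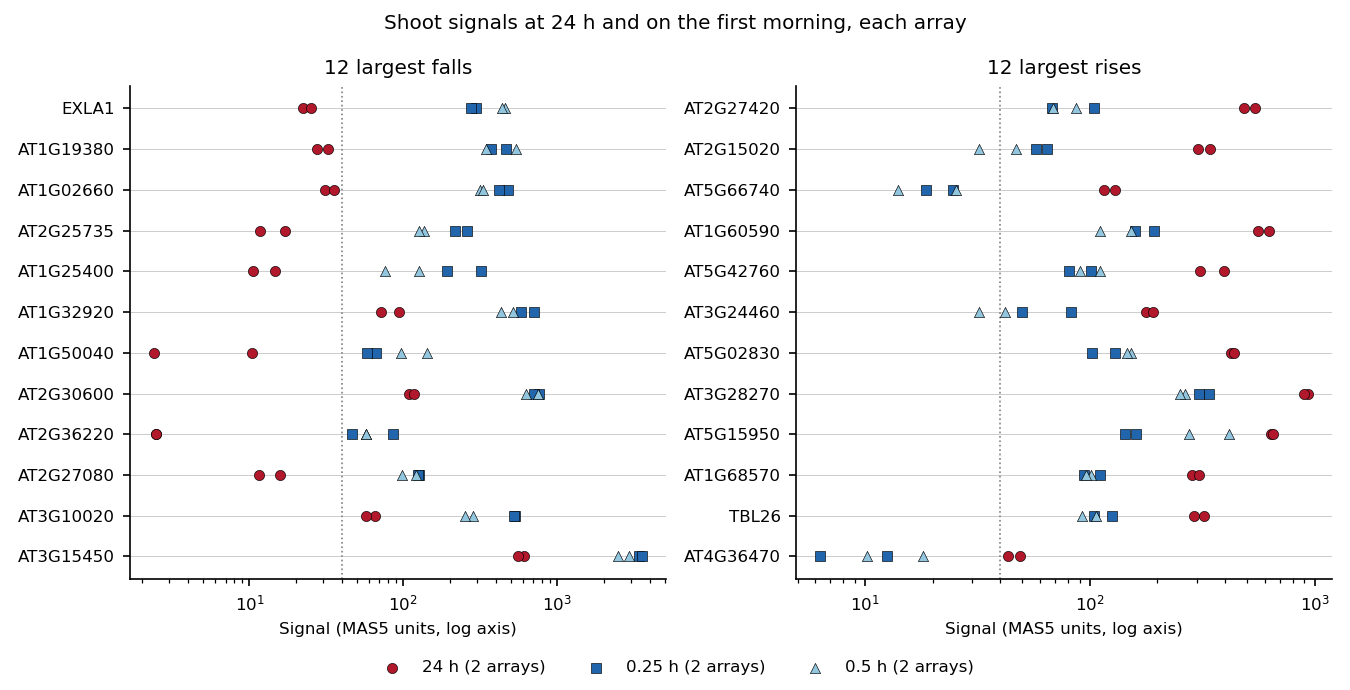
Signal on each of the 6 arrays (horizontal axis, MAS5 units, log scale) for the 12 largest falls and the 12 largest rises among named probe sets. Red circles are 24 h arrays, dark blue squares 0.25 h and light blue triangles 0.5 h, and the dotted line marks the filter at 40; in every row the red points stand apart from all the others, and 8 of the 12 falls have both red points below 40.

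Rapid stress and touch genes were low at 24 h. In whole shoots, fewer cells of a type and less RNA per cell cannot be told apart, here or below. All 5 kept members of this list were lower (median difference -1.85), and 6 of its 27 genes had a name on the array. Of the 5, CML38, STZ and WRKY53 were under 40 on both 24 h arrays and passed the filter through other arrays. CML38 (AT1G76650), a calmodulin-like calcium sensor, had signals of 2.94 and 5.91 at 24 h, against 58.0 and 74.3 at 0.25 h and 26.9 and 30.5 at 0.5 h. The groups did not overlap and the difference was -1.91 ± 0.26 (SE, adjusted p = 0.00024). AT4G27280, an EF-hand calcium-binding protein, had 98.9 and 131 at 24 h, against 523 and 638 at 0.25 h and 344 and 312 at 0.5 h (-1.85 ± 0.26, adjusted p = 0.00027). AT1G32920, an uncharacterised gene, had 71.3 and 93.1 at 24 h, against 578 and 711 at 0.25 h and 516 and 430 at 0.5 h (-2.61 ± 0.21, adjusted p = 5.1e-06). In both genes every 24 h array lay below every early array.

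STZ (AT1G27730), a zinc finger repressor of stress responses, was lower at 24 h mainly against the first of the early times. Its signals were 18.6 and 21.9 at 24 h, against 131 and 272 at 0.25 h and 40.2 and 33.5 at 0.5 h. The difference was -2.72 against 0.25 h (adjusted p = 0.00055) and -0.63 against 0.5 h (adjusted p = 0.34), and its signal also differed between 0.5 h and 0.25 h themselves (-2.1, adjusted p = 0.024). Its call over both early times (-1.68 ± 0.36, adjusted p = 0.0048) was lost without the first 24 h array. With the 25S covariate 4 of the 5 list members kept their call and with the actin covariate none did.

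Of 4 kept WRKY transcription factors, many of which act in defence, 3 were lower and 1 did not pass (median -1.14). WRKY22 (AT4G01250), known from the response to bacterial flagellin, had 13.6 and 20.4 at 24 h, against 82.1 and 88.5 at 0.25 h and 59.4 and 52.9 at 0.5 h, with a difference of -1.57 ± 0.19 (adjusted p = 0.0001). WRKY53 (AT4G23810), also on the rapid stress list, had 10.1 and 10.2 at 24 h, against 51.2 and 94.2 at 0.25 h and a mean of 38.61 at 0.5 h (-1.6 ± 0.41, adjusted p = 0.014). WRKY47 differed by -0.71 ± 0.19 (adjusted p = 0.015), and WRKY20 by 0.14 ± 0.082 (adjusted p = 0.23). When either 24 h array was left out, 1 of the 3, WRKY22, kept its call; 1 of the 3 kept it with the 25S covariate and none with the actin covariate.

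Genes of the sugar starvation list were low at 24 h, and all 3 kept members fell (3 of 18 listed had a name on the array; median -1.99). AT3G15450, which encodes a protein with YGL and LRDR motifs and is known as a transcript that sugar represses, had 606 and 557 at 24 h, against 3399 and 3536 at 0.25 h and 2914 and 2478 at 0.5 h. The groups were far apart, with a difference of -2.37 ± 0.26 (adjusted p = 4.2e-05). AKINBETA1 (AT5G21170), a β subunit of the SnRK1 kinase that acts when energy is short, had 172 and 163 at 24 h, against 402 to 451 on the early arrays (-1.29 ± 0.17, adjusted p = 0.00016). AT5G19120, an aspartyl protease family gene, had 302 and 313 at 24 h, against 1773 and 1571 at 0.25 h and 1064 and 833 at 0.5 h (-1.99 ± 0.27, adjusted p = 0.00019). With the 25S covariate 2 of the 3 kept their call, all but AT5G19120 (-1.73, adjusted p = 0.051), and with the actin covariate none did.

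Of 8 kept transcription factors of the bZIP family, 4 were lower and 4 did not pass the test (median -0.35). BZIP53 (AT3G62420), a bZIP factor of amino acid and low-energy metabolism, had 160 and 179 at 24 h, against 644 and 692 at 0.25 h and 479 and 502 at 0.5 h. Its difference of -1.7 ± 0.082 (adjusted p = 1.6e-07) was among the 5 smallest p of the falls, and it kept its call with the actin covariate (-1.57, adjusted p = 0.024). BZIP61 (AT3G58120) had 33.3 and 45.9 at 24 h, against 107 to 131 early (-1.35 ± 0.17, adjusted p = 0.0001). BZIP60 (AT1G42990), a factor of the unfolded protein response, differed by -0.61 ± 0.15 (adjusted p = 0.01), and bZIP52 by -0.3 ± 0.091 (adjusted p = 0.03). The last of these lost its call under several alternatives, quantile normalization among them. With either covariate only BZIP53 stayed lower, and without the second 24 h array BZIP53 and BZIP61 did.

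Of 5 kept genes that respond to low oxygen, 2 were lower and 3 did not pass the test (median -0.22). AT4G27450, a close relative of AT3G15450, had 321 and 306 at 24 h, against 693 to 975 early (-1.45 ± 0.15, adjusted p = 3.2e-05). AT1G33055 differed by -1.52 ± 0.35 (adjusted p = 0.0069), but its arrays overlapped: it had 4.89 and 22.3 at 24 h, against 70.1 and 61.6 at 0.25 h and 79.5 and 20.8 at 0.5 h, and the call was lost without the first 24 h array. AT4G10270 (-0.22, adjusted p = 0.38) and AT3G03270 (-0.1, adjusted p = 0.41) did not pass. Of the 2 lower members AT4G27450 kept its call with the 25S covariate, and neither did with the actin covariate. AT3G10020, which is known from hypoxia screens as a protein of unknown role, was among the largest falls of all named genes. It had 65.7 and 57.5 at 24 h, against 535 and 522 at 0.25 h and 282 and 250 at 0.5 h (-2.43 ± 0.13, adjusted p = 2.7e-07), and it kept its call under every alternative tried, the actin covariate included (-2.21, adjusted p = 0.027).

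Genes of the cell wall moved in both directions. Of 14 kept expansin and xyloglucan genes, which loosen or rebuild the wall as cells extend, 6 were lower and 3 higher (median 0.0). Of the 6, all but EXGT-A3 were under 40 on both 24 h arrays and passed the filter through other arrays. EXLA1 (AT3G45970), an expansin-like protein, was the largest fall of any named gene. It had 22.2 and 25.1 at 24 h, against 296 and 276 at 0.25 h and 458 and 435 at 0.5 h, a difference of -3.45 ± 0.5 (adjusted p = 0.00035). Both 24 h arrays were below the filter at 40 and all 4 early arrays far above it. XTH19 (AT4G30290), a xyloglucan-cutting and joining enzyme, had 2.78 and 5.21 at 24 h, against 27.6 to 45.9 early (-1.81 ± 0.19, adjusted p = 3.6e-05). XTH33 (AT1G10550) differed by -1.22 ± 0.23 (adjusted p = 0.002) and EXGT-A3 (AT2G01850) by -0.92 ± 0.15 (adjusted p = 0.001). The signal of EXGT-A3 was 718 and 708 at 24 h, against 1233 to 1577 early. With the 25S covariate 4 members of the list stayed lower and 2 higher, and with the actin covariate none was called.

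CSLC04 (AT3G28180), the enzyme that makes the xyloglucan backbone, had 136 and 139 at 24 h, against 384 to 413 early (-1.45 ± 0.091, adjusted p = 9.5e-07). The 4 early arrays of this gene lay close together, and the groups were far apart. The cell wall receptor kinases THE1 (AT5G54380) and FER (AT3G51550), which sense the state of the wall, were both lower. THE1 had 107 and 110 at 24 h, against 233 to 253 early (-1.1 ± 0.095, adjusted p = 7.1e-06), and FER 170 and 174 at 24 h, against 298 to 356 early (-0.83 ± 0.12, adjusted p = 0.00027). Of 6 kept RALF peptides, a family that includes ligands of FER, RALFL22 (-1.36 ± 0.13, adjusted p = 1.3e-05) and RALFL33 (-0.85 ± 0.1, adjusted p = 9.4e-05) were lower, and the other 4 did not pass. THE1, FER and both RALF genes kept their call with the 25S covariate, and none kept it with the actin covariate.

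Among the wall genes that were higher was EXPA8 (AT2G40610), an expansin, with 1029 and 928 at 24 h, against 572 and 605 at 0.25 h and 233 and 347 at 0.5 h. It was higher by 1.23 ± 0.34 (adjusted p = 0.019), though the difference did not pass against 0.25 h alone (0.72, adjusted p = 0.2), and the call was lost without either 24 h array or without the first 0.5 h array. On the auxin and elongation list, which holds EXPA8, 1 of 4 kept members was lower, WES1 (AT4G27260), an enzyme that couples auxin to amino acids (46.6 and 48.2 at 24 h, against 73.3 to 103 early; -0.75 ± 0.15, adjusted p = 0.0027). GH3.3 (-0.36, adjusted p = 0.2) and IAA29 (-0.43, adjusted p = 0.32) did not pass.

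The other large falls were of genes with less known roles. AT1G02660, a chloroplast lipase, had 31.2 and 35.5 at 24 h, against 478 and 419 at 0.25 h and 315 and 328 at 0.5 h (-3.17 ± 0.27, adjusted p = 6.8e-06). AT1G19380 had 32.5 and 27.4 at 24 h, against 347 to 536 early (-3.44 ± 0.37, adjusted p = 3.4e-05). AT2G25735 and AT1G25400 fell by 2.95 and 2.89 on the log2 scale, and AT1G50040, AT2G36220 and AT2G27080 (NHL13, related to a membrane protein of disease resistance) by 2.59, 2.5 and 2.43. In these genes both 24 h arrays were below the filter at 40, so the size of the fall depends on the added 10. AT2G30600, a BTB/POZ domain protein, was read by separate probe sets that fell alike, by 2.54 and 2.21 on the log2 scale, and the first of them had 109 and 118 at 24 h, against 623 to 756 early. AT2G44500, an O-fucosyltransferase family gene, had 33.5 and 41.6 at 24 h, against 172 to 268 early (-2.27 ± 0.1, adjusted p = 1.6e-07). AT1G25550, a nitrate-responsive repressor of the GARP family, had 121 and 117 at 24 h, against 424 to 650 early (-2.11 ± 0.13, adjusted p = 9.5e-07).

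All 3 kept CC-type glutaredoxin genes of the chromosome 4 cluster, small redox proteins that bind TGA factors, were lower (median -1.7). AT4G15690 had 4.46 and 1.57 at 24 h, against a mean of 20.21 at 0.25 h and 38.4 and 43.6 at 0.5 h (-1.6 ± 0.23, adjusted p = 0.00035), and AT4G15660 had 4.77 and 2.74 at 24 h, against 23.3 to 64.7 early (-2.07 ± 0.33, adjusted p = 0.00071). The genes of this cluster are near-identical neighbours, so the signal of each probe set may hold that of others. None of the 3 kept its call with the 25S covariate.

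Among the rises, the largest were of a cysteine protease family gene and of a gene without a known role. AT2G27420, the protease gene, had 544 and 487 at 24 h, against 104 and 68.1 at 0.25 h and 68.3 and 87.2 at 0.5 h. Both 24 h arrays were far above the early ones, and the difference was 2.53 ± 0.2 (adjusted p = 3.9e-06). AT2G15020 had 341 and 304 at 24 h, against 64.3 and 57.5 at 0.25 h and 32.0 and 46.8 at 0.5 h (2.5 ± 0.17, adjusted p = 1.8e-06). AT5G66740, which encodes a protein of a family of unknown function, had 130 and 116 at 24 h, against 14.0 to 25.4 early (2.13 ± 0.18, adjusted p = 6.7e-06). These 3 are the named genes that were higher by at least 4-fold, where 30 named probe sets were lower by as much.

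The other large rises were of genes with varied roles. AT1G60590, a pectin lyase-like protein, had 627 and 558 at 24 h, against 111 to 193 early (1.9 ± 0.3, adjusted p = 0.0006). TBL26 (AT4G01080), of a family that acetylates wall polysaccharides, had 290 and 323 at 24 h, against 91.9 to 125 early (1.45 ± 0.21, adjusted p = 0.00042), and it alone of the 24 lost its call with the 25S covariate (1.43, adjusted p = 0.05). AT1G68570 (NPF3.1), a transporter of the nitrate and peptide family, had 285 and 307 at 24 h, against 94.4 to 111 early (1.47 ± 0.12, adjusted p = 4.5e-06). AT3G28270 had 932 and 899 at 24 h, against 253 to 338 early (1.63 ± 0.15, adjusted p = 8.4e-06). AT5G02830, a pentatricopeptide repeat protein, had 427 and 438 at 24 h, against 102 to 153 early (1.65 ± 0.12, adjusted p = 2.4e-06). AT5G42760 and AT4G36470, methyltransferase family genes, were higher by 1.78 and 1.39, and AT3G24460, a serine incorporator-like membrane protein, by 1.72. In each of these the arrays of the groups did not overlap.

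AT5G15950, which encodes S-adenosylmethionine decarboxylase of polyamine synthesis, stood apart from the other rises in its early values. It had 638 and 656 at 24 h, against 144 and 160 at 0.25 h and 275 and 418 at 0.5 h. The 24 h arrays were the highest, but 0.5 h was itself above 0.25 h by 1.11 (adjusted p = 0.0087), so the difference was 2.02 against 0.25 h and 0.91 against 0.5 h (adjusted p = 9.6e-06 and 0.0041).

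BIC1 (AT3G52740) and BIC2 (AT3G44450), small proteins that inhibit the blue light receptors called cryptochromes, were both higher. BIC1 had 104 and 91.4 at 24 h, against 47.2 and 48.2 at 0.25 h and 36.6 and 37.3 at 0.5 h (1.05 ± 0.11, adjusted p = 2.4e-05). BIC2 had 229 and 180 at 24 h, against 70.1 and 57.1 at 0.25 h and 99.9 and 129 at 0.5 h (1.16 ± 0.16, adjusted p = 0.00019). Neither gene's arrays overlapped. Both kept their call with the 25S covariate and neither with the actin covariate. AT1G18810, a phytochrome kinase substrate-like gene among the 5 smallest p of the rises, had 168 and 159 at 24 h, against 53.4 to 83.0 early (1.16 ± 0.097, adjusted p = 5.7e-06).

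Genes of flavonoid decoration were higher. Of 6 members of the flavonoid list with a name on the array, the filter kept 4, of which 3 rose and none fell (median 0.81). UGT78D1 (AT1G30530) and UGT78D2 (AT5G17050), which attach rhamnose and glucose to flavonols and anthocyanins, were higher by 0.97 ± 0.18 (adjusted p = 0.002) and 0.91 ± 0.13 (adjusted p = 0.00037). UGT78D2 had 215 and 240 at 24 h, against 88.0 to 136 early, and UGT78D1 215 and 279 at 24 h, against 108 to 145 early. UF3GT (AT5G54060), an anthocyanin glycosyltransferase, had 41.5 and 48.1 at 24 h, against 16.8 to 28.7 early (0.72 ± 0.24, adjusted p = 0.047), a call lost without the pseudocount and when either 24 h array was left out. DFR, an enzyme of anthocyanin synthesis, had 65.0 and 82.8 at 24 h, against 32.1 to 65.9 early, and did not pass (adjusted p = 0.3). None of the 3 higher genes kept its call with the 25S or the actin covariate. The list median was 0.73 with 25S and 0.31 with actin.

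In the wider family of UGT glycosyltransferases 9 of 24 kept members were higher and 3 lower (median 0.06). UGT74D1 rose by 0.7 ± 0.1 (417 and 430 at 24 h, against 228 to 296 early, adjusted p = 0.00046), while UGT85A4 was lower by -1.41 ± 0.15 (8.15 and 7.55 at 24 h, against 32.8 to 44.6 early, adjusted p = 4.2e-05) and UGT85A2 by -0.76 ± 0.12 (adjusted p = 0.00059). Of 11 kept CYP71B cytochrome P450 enzymes 6 were higher and 1, CYP71B22, lower (median 0.34). CYP71B22 had 20.3 and 18.6 at 24 h, against 54.9 to 84.6 early (-1.41 ± 0.26, adjusted p = 0.0019), and CYP71B6 was higher by 0.59 ± 0.15 (adjusted p = 0.015). Without the first 24 h array 3 UGT members and no CYP71B member stayed higher, and with either covariate no member of these families did. Members of each family share sequence, and how far their probe sets read each other was not tested.

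Of 3 kept glucosinolate genes, which make the sulfur-rich defence compounds of this plant family, 2 were higher: AT2G31790 (774 and 769 at 24 h, against 508 to 576 early; 0.53 ± 0.14, adjusted p = 0.014) and UGT74B1 (0.45 ± 0.12, adjusted p = 0.018). BCAT4, of methionine chain elongation, did not pass (0.3, adjusted p = 0.18), and neither call held without either 24 h array or with either covariate. Among 8 kept SWEET and sucrose transport genes, 3 were higher and none lower (median 0.15). SWEET11 (AT3G48740), which passes sucrose out of leaf cells toward the phloem, had 1095 and 1003 at 24 h, against 722 to 847 early (0.43 ± 0.09, adjusted p = 0.0041). SWEET13 was higher by 0.84 ± 0.22 (68.5 and 84.9 at 24 h, against 28.2 to 52.4 early, adjusted p = 0.017) and SAG29, which is SWEET15, by 1.22 ± 0.39 (307 and 258 at 24 h, against 68.4 to 187 early, adjusted p = 0.038). Without the first 24 h array none of the 3 kept its call, and with either covariate none did.

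**Figure D3:**
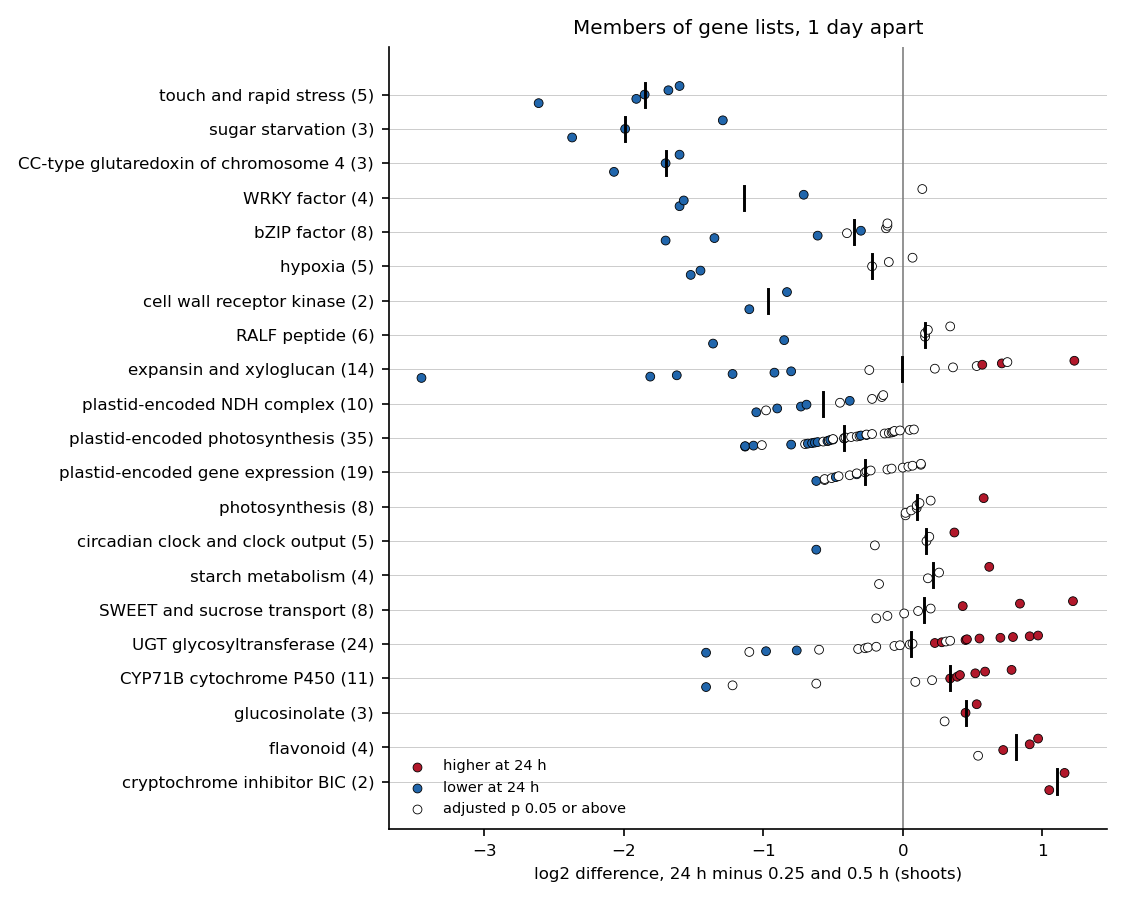
Differences between 24 h and the early times (horizontal axis, log2, 24 h minus the mean of 0.25 and 0.5 h) for every kept member of 21 gene lists, with the number of members in brackets. Each point is 1 probe set, red where higher at 24 h, blue where lower and white where the adjusted p was 0.05 or above, and the bar is the list's median; the rapid stress and sugar starvation lists lie at -1.29 or below, and the nuclear photosynthesis genes near 0.

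Of 35 listed clock and clock output genes 5 had a name on the array, all kept, of which 1 was higher and 1 lower, and all 5 lay between -0.62 and 0.37. GI (AT1G22770), a clock component that peaks late in the day, had 52.2 and 43.3 at 24 h, against 50.9 to 64.2 early (-0.2 ± 0.11, adjusted p = 0.21), while its mean was 446.7 at 6 h. AT1G69570, a DOF factor of flowering time, was lower (82.5 and 69.8 at 24 h, against 113 to 128 early; -0.62 ± 0.11, adjusted p = 0.0019), and AT5G52660, a REVEILLE factor, was higher by 0.37 ± 0.11 (adjusted p = 0.025), a call lost when any of 4 of the 6 arrays was left out. AT4G33980 (COR28) stayed at 4.01 or less on all 6 arrays and did not pass, nor did COR27, with means of 2.446 at 24 h and 0.7995 early, and at such signals a change could hardly be seen. With either covariate no clock gene was called.

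Of 8 kept nuclear photosynthesis genes, 1 was higher and 7 did not pass, with a median of 0.1. PRK, an enzyme of the Calvin cycle, had 4624 and 4423 at 24 h, against 4105 to 4327 early (0.1 ± 0.094, adjusted p = 0.46), and LHCB4.1, an antenna protein, 5830 and 5733 at 24 h, against 5090 to 5542 early (0.12 ± 0.095, adjusted p = 0.41). LHCB4.3, an antenna protein that responds to light, was higher by 0.58 ± 0.18 (894 and 771 at 24 h, against 443 to 684 early, adjusted p = 0.035), a call lost with quantile normalization and without either 24 h array. In chlorophyll synthesis, CHLM did not pass (0.14, adjusted p = 0.23) and PORB (AT4G27440), which makes chlorophyllide in the light, was lower: it had 152 and 194 at 24 h, against 718 and 523 at 0.25 h and 345 and 488 at 0.5 h (-1.49 ± 0.18, adjusted p = 0.0001). In starch metabolism APL3, a subunit of the enzyme that commits sugar to starch, was higher (64.1 and 57.0 at 24 h, against 25.3 to 47.2 early; 0.62 ± 0.18, adjusted p = 0.024; lost without either 24 h array), and the other 3 kept genes did not pass.

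Transcripts of the chloroplast genome were lower at 24 h where they changed at all. Of 35 kept plastid-encoded photosynthesis probe sets 14 were lower and none higher (median -0.42). Of 10 for the NDH complex 5 were lower (median -0.57). Of 19 for plastid gene expression 3 were lower and 16 did not pass (median -0.27). The count for plastid gene expression is near the share of all kept probe sets that were lower, 12.0%. psbD, for a core protein of photosystem II, had 1361 and 1022 at 24 h, against 3464 and 3564 at 0.25 h and 1817 and 2029 at 0.5 h (-1.13 ± 0.27, adjusted p = 0.0099). ndhK, of the NDH complex, had 291 and 274 at 24 h, against 1201 and 1170 at 0.25 h and 270 and 329 at 0.5 h, so that 24 h overlapped 0.5 h (-0.08, adjusted p = 0.9) and differed from 0.25 h (-2.03, adjusted p = 0.00048). Mitochondrial nad5 had the same pattern, with 28.4 and 30.4 at 24 h, against 134 and 118 at 0.25 h and 33.5 and 28.9 at 0.5 h.

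These organelle transcripts moved with the 25S control, whose signals by array are given above. With that covariate none of the plastid-encoded members stayed lower, 2 of the 35 photosynthesis members were higher, and the medians of the lists were 0.18, 0.04 and 0.11. With the actin covariate no member was called and the medians were -0.43, -0.52 and -0.19. Without the second 24 h array 1 of the 35 photosynthesis members and no NDH member was lower. The part of RNA quality in these differences was not tested further.

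For cold and abscisic acid genes, 1 of 4 kept was higher and 1 lower. COR15A (AT2G42540), a cold-regulated chloroplast protein, had 83.0 and 89.2 at 24 h, against 25.9 to 49.1 early (1.16 ± 0.39, adjusted p = 0.045), a call lost without the pseudocount and with one of 50. COR47 was lower by -0.54 ± 0.16 (200 and 198 at 24 h, against 268 to 345 early, adjusted p = 0.024). Neither the call of COR15A nor that of COR47 held without either 24 h array or with either covariate. COR15B and LTI30 did not pass (-0.13, adjusted p = 0.81; -0.02, adjusted p = 0.96). No kept member passed the test among heat shock genes (2 kept), the cell division markers 3xHMG-box1 and 3xHMG-box2, or tubulins (7 kept, median 0.06), though some alternatives called 1 tubulin higher, 1 lower or both. PDF1.2, a jasmonate-responsive defensin, had 13.8 and 8.31 at 24 h, against 15.6 and 499 at 0.25 h and 98.4 and 44.1 at 0.5 h, and did not pass (-2.16 ± 1.0, adjusted p = 0.15). Its early arrays were far apart. The salicylic acid and senescence lists had no kept member.

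Taken against each early time alone, 24 h differed from 0.25 h at 3053 probe sets (23.7%), of which 1541 (12.0%) were higher and 1512 (11.7%) lower, and from 0.5 h at 1916 (14.9%), of which 866 (6.72%) were higher and 1050 (8.15%) lower. These comparisons share the 24 h arrays, and 1394 probe sets passed both with the same sign. The early times themselves differed at 249 probe sets (1.93%), with 91 (0.706%) higher and 158 (1.23%) lower at 0.5 h. Of the 3100 that differed over both early times, 159 also differed between 0.5 h and 0.25 h. With each array centred on its median the split was 2390 higher and 1161 lower against 0.25 h, and 141 higher and 106 lower for 0.5 h against 0.25 h. With the 25S covariate the counts were 505 against 0.25 h, 1482 against 0.5 h and 30 between the early times, and with the actin covariate 10, 80 and 51.

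Transcripts that swing over the day were described with the 10 shoot arrays of 1, 3, 4, 6 and 12 h, which are on neither side of the comparisons above but share in the estimate of the spread and in the filter. The means of 348 probe sets spanned at least 2 on the log2 scale over these times (median span 2.62). A day later 179 of these (51.4%) were bounded within 2-fold, against 90.8% of the 12535 with a smaller span, and their median absolute difference was 0.49, against 0.19. At 24 h, 71 of the 348 were higher and 88 lower, so 45.7% differed, against 2941 of the 12535 with a smaller span. Of the 348, 53 were below 40 on all 6 arrays and so were kept only through other hours. Among the other 295, 157 differed (53.2%) and 135 were bounded within 2-fold.

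Of the 6 named genes with the largest span, 4 did not pass the test at 24 h. COR15B had 24.6 and 27.0 at 24 h, against 25.3 to 32.5 early, while its mean reached 927.5 ± 110.0 at 6 h (SD, n = 2). AT5G62360, an invertase and pectin methylesterase inhibitor family gene, had 9.13 and 6.64 at 24 h, against 2.51 to 18.3 early and 924.2 at 6 h. AT4G30650, a membrane protein of the low temperature and salt family, had 28.5 and 33.9 at 24 h, against 10.9 to 24.3 early and 1262 at 6 h (0.5 ± 0.3, adjusted p = 0.26), and AT1G07050, a CCT domain protein, 11.0 and 11.3 at 24 h, against 4.16 to 10.1 early and 419.4 at 6 h (0.36, adjusted p = 0.2). All 4 were below the filter at 40 on all 6 arrays and were kept through the hours between, so a fall at 24 h could not be seen in them, and for AT4G30650 and AT1G07050 both 24 h arrays lay above all early ones. AT2G15020 and AT3G62550, a universal stress protein family gene, were the 2 that differed, and AT3G62550 had 74.2 and 64.7 at 24 h, against 410 and 507 at 0.25 h and 319 and 218 at 0.5 h (-2.17 ± 0.15, adjusted p = 1.5e-06), with a mean of 2013 at 6 h.

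**Figure D4:**
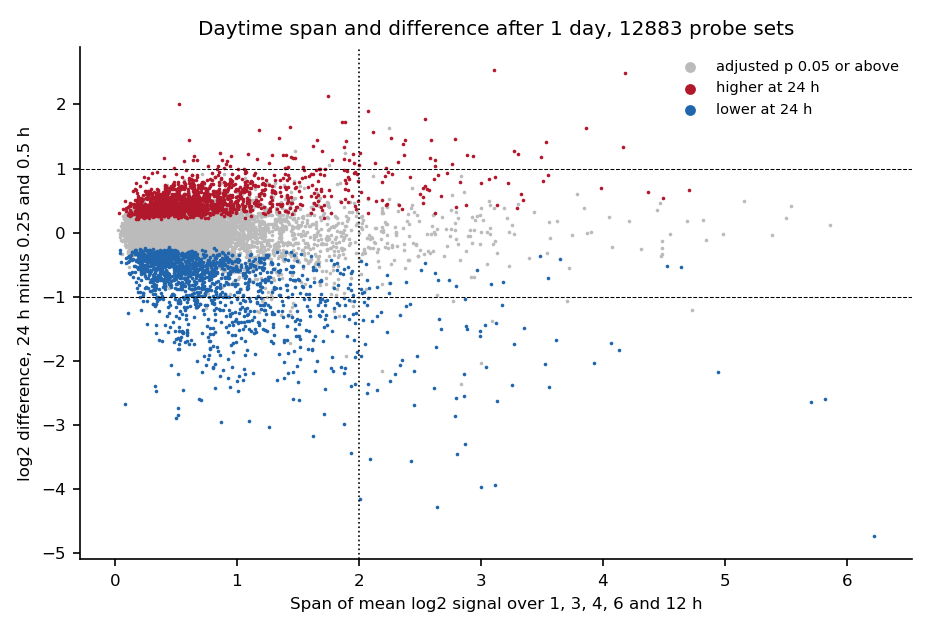
Span of the mean log2 signal over 1, 3, 4, 6 and 12 h (horizontal axis) against the log2 difference between 24 h and the early times (vertical axis) for 12883 probe sets. Red points were higher at 24 h, blue lower and grey had an adjusted p of 0.05 or above; the dotted line marks a span of 2 and the dashed lines 2-fold, within which most points lie, while the falls extend further from 0 than the rises.

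The hours between showed when the probe sets that differed left their early level. They are a description, since the early arrays helped to choose these probe sets. Of the 419 that were lower by at least 2-fold at 24 h, 316 (75.4%) had both 1 h arrays below all 4 early arrays, against 14.0% of all kept probe sets, and 356 (85.0%) had both 12 h arrays below, against 26.8%. Their median difference from the early times was -1.15 at 1 h and -0.81 at 4 h. It was -1.4 at 12 h and -1.45 at 24 h. Of the 74 that were higher, 43 (58.1%) had both arrays above at 1 h, against 23.2% of all kept, and 17 (23.0%) at 6 h, against 27.5%. Their median was 0.54 at 1 h and -0.31 at 6 h, and then 0.56 at 12 h and 1.2 at 24 h. All 12 of the largest falls had a 1 h mean below their lowest early array, and 9 of the 12 largest rises a 1 h mean above their highest.

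Single genes showed these courses. The mean of AT1G02660 was 448.4 ± 41.2 at 0.25 h and 321.6 ± 9.34 at 0.5 h (SD, n = 2 each), then 35.88 at 1 h and 22.45 at 12 h. AT3G15450, of the sugar starvation list, was at 222.8 at 1 h, back at 2002 at 3 h and 1707 at 6 h, and at 193.6 at 12 h. AT2G15020 was at 310.9 at 1 h and at 7.692 at 6 h, with 341 and 304 on the 24 h arrays, and AT5G15950 at 602.2 at 1 h and 78.58 at 6 h. For AT2G15020 and AT5G15950 the 24 h mean was nearer to that of 1 h than to those of the early arrays.

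**Figure D5:**
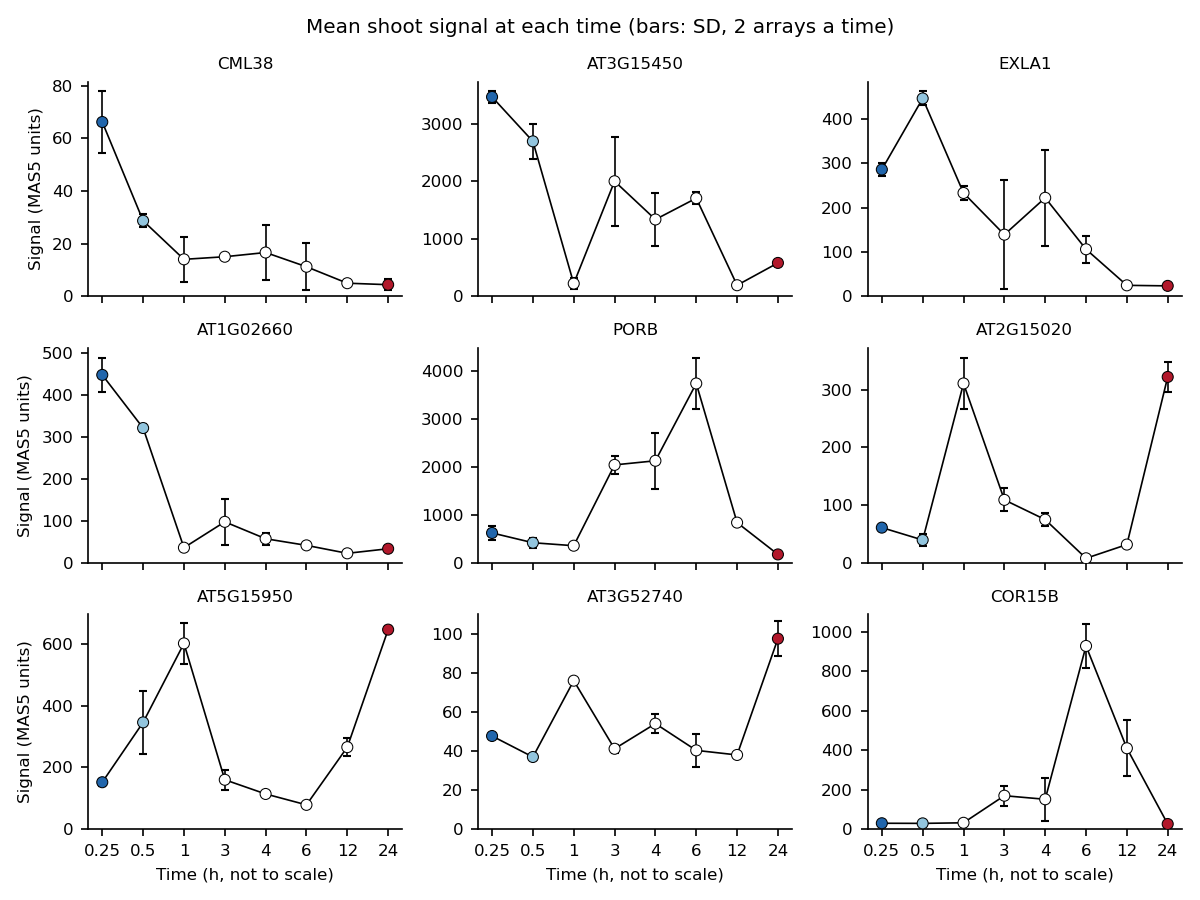
Mean shoot signal (vertical axes, MAS5 units, from 0) of 9 genes at 0.25, 0.5, 1, 3, 4, 6, 12 and 24 h (horizontal axis, in h and not to scale), with bars for the SD of 2 arrays. Dark and light blue mark 0.25 and 0.5 h and red 24 h; CML38, EXLA1 and AT1G02660 are highest on the blue points, AT2G15020 and AT5G15950 are high at 1 and 24 h, and COR15B is low at both ends and peaks at 6 h.

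The same contrast was made in roots, from other arrays of the same times. In a fit of all 36 arrays 3407 probe sets differed between 24 h and the early times in shoots, against 58 (0.450%) in roots, of which 34 (0.264%) were higher and 24 (0.186%) lower. The median absolute difference was 0.194 in shoots and 0.082 in roots. In roots the actin ratio was 2.302 and 1.554 at 24 h, against 1.542 to 2.005 early. The 25S signal was 1541.5 and 2360.4, against 1532.5 to 2630, so neither measure separated the root groups as it did in shoots. The GAPDH ratio did separate them: it was 1.069 and 1.034 at 24 h, below the 1.082 to 1.21 of the early root arrays. That is the reverse of its direction in shoots. No covariate was tried in the comparison of the tissues, and the part of RNA quality in it was not tested. The filter used shoot arrays only, and 11159 of the 12883 probe sets also reached 40 on 2 or more root arrays. Among these, 2834 (25.4%) differed in shoots and 55 (0.493%) in roots, with median absolute differences of 0.184 and 0.079, and the difference between the tissues passed at 876 (7.85%). Over all kept probe sets the difference between the tissues passed at 1095 probe sets (8.50%), with 400 (3.10%) more positive and 695 (5.39%) more negative in shoots. Of the 419 shoot probe sets lower by at least 2-fold, 309 differed from roots, and of the 74 higher, 55 did. Both sets were chosen by their change in shoots, which is part of the difference tested. Their high shares follow in part from that choice and are no separate support. The number of calls of this test was 522 without the first 24 h shoot array, 725 without the second, and 624 without the second 24 h root array.

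Of the 12 largest falls 11 differed between the tissues, and of the 12 largest rises 11 did, though they too were chosen by their change in shoots. The 5 genes with the smallest p for this difference did not pass the test in roots. AT2G44500 had a mean of 250.7 at 24 h in roots, against 281.7 early (-0.16, adjusted p = 0.85), and its difference between shoots and roots was -2.11 ± 0.13 (adjusted p = 4.4e-10). AT1G25550 had a root mean of 264.3 at 24 h, against 315.8 early, and differed by -1.87 ± 0.2 (adjusted p = 2.6e-06). AT2G15020, AT5G66740 and AT2G27420 had root means of at most 4.375 at both times, where a change could hardly be seen, so their differences between the tissues (2.47, 2.13 and 2.59) restate those of shoots.

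The exceptions were AT5G15950 and AT2G27080, which also changed in roots. AT5G15950 had a root mean of 254.2 at 24 h, against 82.41 early (1.56, adjusted p = 4.7e-05), and its difference between the tissues did not pass (-0.1 ± 0.26, adjusted p = 0.88). AT2G27080 had a root mean of 68.53 at 24 h, against 174.5 early (-1.26, adjusted p = 0.049), and its difference between the tissues did not pass either (-1.17 ± 0.41, adjusted p = 0.08). Among the rapid stress genes, AT1G32920 differed between the tissues (-1.98, adjusted p = 0.0067), while CML38 (-1.69, adjusted p = 0.12), AT4G27280 (-0.97, adjusted p = 0.18) and STZ (-0.03, adjusted p = 0.99) did not pass. BIC1 was higher in roots as well (0.61, adjusted p = 0.01).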

How the data were processed

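Per the submitters' processing notes, MAS5 made the deposited values, 1 intensity for each of 22810 probe sets of the Affymetrix ATH1 array, with no version named. The authors had put all arrays on 1 scale, since the trimmed mean (2% off each end) was 100.007 to 100.01 throughout. Signals were converted to log2 after adding 10, and the 64 control probe sets were set aside. A filter kept the 12883 probe sets that reached 40 on 2 or more of the 18 shoot arrays. Genes were named for the 6836 kept probe sets that the platform table pairs with 1 gene; of 22810, 13513 had 1 gene, 503 several and 8794 none, and 13436 matched the TAIR10.1 gene table, used for names only.

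limma 3.58.1 (R 4.3.3) was fitted to 9 time means of the 18 shoot arrays, with 9 residual and 3.84 prior degrees of freedom. Adjusted p-values are Benjamini-Hochberg over all kept probe sets, 2-sided, with a threshold of 0.05, and SE is the standard error. Roots were compared in a fit of all 36 arrays. The difference within 2-fold is a 95% interval inside that bound. The number of arrays limits the precision.

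Genes were named by rule: the 12 largest rises and 12 largest falls without overlap, the 5 smallest p each way, up to 4 members of each list, the 5 smallest p of shoots against roots, and the 6 largest daytime spans. The members, lists and tests were chosen with earlier results of these data known. Genes outside the rule were chosen after their values were seen. Among them are those in the closing observations, except the autophagy and amino acid breakdown genes, which are list members. Alternatives were no pseudocount, one of 50, other filters, quantile normalization, centring, a trend and robust prior, 6 or 36 arrays, replicate blocks, covariates for 25S and root share, and each array left out; the actin covariate was chosen after seeing the data. The procedure was tested on simulated data.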

Additional observations from a re-analysis of the deposited data

Results flagged for a closer look

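In 4 of the 161 named probe sets, 1 of the 4 early arrays stood far from the others, by a gap given here as a share of the whole range. Chance gives about 1 in 20 such groups. The gap was 0.93 for AT5G48570, a heat shock list gene with 229 on the first 0.5 h array and 60.3 to 66.6 on the others. It was 0.863 for GH3.3, 0.909 for FER and 0.853 for AT4G15660.

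The change over the day in shoots differed from that in roots for 27 of the 29 genes named for size or smallest p. Over all kept probe sets 1095 (8.50%) differed. The 29 were chosen by their change in shoots, which is part of the difference tested, so their high share follows in part from that choice. In this test the difference, shoots minus roots, was positive for AT2G27420 (2.59), AT2G15020 (2.47), AT5G66740 (2.13), AT1G60590 (1.92), AT5G42760 (1.71), TBL26 (1.69), AT3G28270 (1.64), AT3G24460 (1.58), AT5G02830 (1.46), AT1G68570 (1.41), AT1G18810 (1.12) and AT4G36470 (1.07). The first 3 of these had root means of at most 4.375 at both times. It was negative for AT1G02660 (-2.87), AT1G19380 (-2.73), EXLA1 (-2.35), AT2G30600 (-2.35), AT1G50040 (-2.14), AT2G44500 (-2.11), AT2G36220 (-2.09), AT3G10020 (-2.09), AT1G32920 (-1.98), AT1G25400 (-1.97), AT2G25735 (-1.93), AT1G25550 (-1.87), AT3G15450 (-1.86), BZIP53 (-1.33) and CSLC04 (-0.96).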

How the results depend on the processing

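Of 3343 values of named genes under alternatives, 3026 kept their side of the threshold and direction, 286 lost their call, 21 gained one and 10 called values changed sign. Of 114 called named genes, 74 kept their call under all alternatives but the 25S and actin covariates, while 56 lost it with 25S and 111 with actin, those that changed sign included. With the actin covariate the sign turned for COR47 (0.16), AT2G31790 (-0.23), UGT74B1 (-0.30), MCCA (0.09), AT4G15680 (0.83), AOR (-0.04) and AT3G59780 (-0.59), and with 25S for psbD (0.19), ndhK (0.09) and ndhH (0.07). The count of 3100 was 1007 with 25S and 14 with actin, and 1316 to 2837 with 1 array left out. The 11555 probe sets within 2-fold became 20737 without the filter and 7081 with a filter at 100, since other numbers were tested, 7618 with actin, and 10998 to 11509 with 1 array left out. Of the probe sets with a large swing, 159 differed, 88 with 25S, 3 with actin, and 112 to 160 with 1 array left out. Against 0.25 h alone 3053 became 505 and 10 (1589 to 1849 with 1 array left out), against 0.5 h alone 1916 became 80 with actin (869 to 1403), and between the early times 249 became 30 and 51 (39 to 104). The 1095 of shoots against roots became 522 to 1112 with 1 array left out. With a replicate block the counts were 2973, 2930, 1824, 215 and 1065; deviations of same-numbered arrays correlated with no steady sign across times (-0.476 to 0.428; 0.016 and 0.033 between 24 h and the early times), so the numbers were not used as pairs. In fits with a time left with 1 array, it was assumed to vary like the others. The cause of the changes with the covariates was not tested, and with 2 arrays at 24 h the control measures and the groups cannot be told apart.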

Other observations

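Some genes outside the rule, chosen after their values were seen, moved by as much as those named above. EXO, known in Arabidopsis as a brassinosteroid-responsive protein of cell expansion, had 272 and 255 at 24 h, against 865 to 1208 early (-1.91 ± 0.18, adjusted p = 1.3e-05). TET8, a tetraspanin of extracellular vesicles, had 183 and 194 at 24 h, against 700 to 851 early (-1.97 ± 0.16, adjusted p = 4.7e-06). Both kept their call with the 25S covariate and lost it with the actin covariate (adjusted p = 0.25 and 0.061). ORA47, a factor of jasmonate synthesis, had 27.9 and 30.9 at 24 h, against 134 and 192 at 0.25 h and 36.2 and 34.1 at 0.5 h, and passed against 0.25 h (-2.12, adjusted p = 5e-05) but not against 0.5 h (-0.2, adjusted p = 0.62).

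Among rises, MYC4, a jasmonate response factor, had 183 and 228 at 24 h, against 68.0 to 114 early (1.16 ± 0.17, adjusted p = 0.00034). ATSPS4F, a sucrose phosphate synthase, had 1236 and 978 at 24 h, against 490 to 623 early (0.95 ± 0.18, adjusted p = 0.0024), a call lost without the first 24 h array. AOP1, of a family of glucosinolate side chain enzymes, had 164 and 153 at 24 h, against 75.5 to 91.2 early (0.87 ± 0.11, adjusted p = 0.0001). The genes of autophagy and amino acid breakdown that follow were named by the rule, as list members. Of 10 kept autophagy genes, ATG8E was lower (-0.85 ± 0.18, adjusted p = 0.004), ATG3 higher (0.34 ± 0.081, adjusted p = 0.0092), and 8 did not pass. Of 6 kept genes of amino acid breakdown, MCCA, a subunit of the leucine pathway, was lower (-1.35 ± 0.32, adjusted p = 0.0092), a call lost without either 24 h array.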
